A study of Mus musculus with 15 samples.

Results

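Fibroblasts sit beneath the airway and alveolar epithelium and make many of the growth factors to which epithelial cells respond. The 9 genes described here include 6 secreted factors that act on epithelium or on neighbouring cells (Fgf2, Fgf7, Fgf10, Fgf18, Hgf and Igf1), a ligand of platelet-derived growth factor receptors (Pdgfa) and the receptors Pdgfra and Pdgfrb. They were chosen by gene symbol as a set of fibroblast growth factors for epithelium with PDGF genes, and all 9 were found among the 18078 genes measured. Of these, 8 passed the filter on low values, which asked for 1 TPM or more in at least 3 libraries, and 13887 genes in all passed it. Fgf18 did not pass and is given by its values.

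The cells were primary lung fibroblasts, cultured from wild-type BALB/cJ mice, and RNA was taken 20 h after cytokines were added. The 5 groups of 3 libraries each received IL-33, IL-13 and IL-17A together (the triple combination), IL-33 with IL-13, IL-33 with IL-17A, IL-33 alone, or no cytokine. IL-33, a relative of IL-1, is set free by injured epithelium as an alarm signal. IL-13 belongs to type 2 immunity and acts through STAT6, whereas IL-17A belongs to type 3 immunity. No group received IL-13 or IL-17A without IL-33, so all groups with either of these were also exposed to IL-33. The labels name no animal, culture or batch for a library, so each p-value speaks only for variation among these libraries, and that variation may be technical.

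Fibroblast growth factors signal through receptor tyrosine kinases with heparan sulfate as a cofactor. Fgf7 and Fgf10 are made by mesenchymal cells and act on the epithelial splice form of Fgfr2, so they pass from fibroblast to epithelium. Hgf acts on the receptor Met in the same direction, and Igf1 acts on Igf1r in many cell types and is also made by macrophages. Platelet-derived growth factor runs mainly the other way. Pdgfa, made by epithelium among others, binds Pdgfra, the receptor that marks most lung fibroblasts, whereas Pdgfrb binds Pdgfb and is typical of pericytes and smooth muscle as well as fibroblasts.

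Values are in TPM, reads per gene length scaled to the same total in each library. The length in these files was the span of the gene with its introns. Levels within a gene thus need no rescaling for length between libraries, while levels of different genes do. Because the total is fixed, a shift in other genes also moves each value, and results under another scaling are given below. Depth recovered from the smallest steps in the values was 10554596 to 15123269 reads per library. Fibroblast marker genes were abundant, with all 16 present and Col1a1 at a mean of 4658 TPM. Macrophage genes were abundant too. Of 18 listed, 17 were in the files and 13 had a mean of 10 TPM or more, with Lyz2 at 9363 TPM, and the summed macrophage list per gene span ran from 17737 to 20364 TPM across the libraries, against 10322 to 16319 TPM for the summed fibroblast list. The cultures labelled as primary lung fibroblasts thus also held RNA of macrophage marker genes. Of 9 epithelial markers, 5 were in the files and summed to 0.576 to 4.19 TPM, and 4 of 6 endothelial markers summed to 2.16 to 3.04 TPM. The 2 of 7 lymphocyte markers in the files summed to 6.87 to 11.1 TPM. The 2 of 8 granulocyte and mast cell markers, mostly Mcpt8, moved with the groups and rose in every cytokine group. They summed to 245 to 304 TPM with the triple combination, 208 to 217 with IL-33 and IL-13, 221 to 238 under IL-33 and IL-17A, 173 to 191 with IL-33 and 100.4 to 107 TPM in untreated cells. All 5 mesothelial markers were present and summed to 18.2 to 20.1 TPM with the triple combination, 22.3 to 22.9 with IL-33 and IL-13, 14.4 to 18.3 under IL-33 and IL-17A, 20.7 to 22.3 with IL-33 and 32.1 to 36.6 TPM in untreated cells. The part of these cells in the results was not tested. In bulk RNA, fewer cells of a type and less RNA per cell cannot be told apart. Some libraries stood apart. These were 1 library of the triple combination (replicate 1), every library given IL-33 and IL-13, and 2 given IL-33 and IL-17A (replicates 2 and 3). These 6 had a low mitochondrial share of TPM of 3.50 to 3.87%, against 4.77 to 6.13% in the other 9. This split was seen in the data and is called the low mitochondrial set here.

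The promoters of Igf1, Pdgfra, Fgf7, Hgf and Fgf2 are shown so that those of genes that rose (Fgf2, Fgf7 and Hgf) can be read beside those of genes that fell (Igf1 and Pdgfra). RefSeq windows of 300 bases (250 before and 50 after the start, build GRCm38.p6) were found for 8 of the 9 genes. Capitals mark matches to 5 motifs searched on both strands: an NF-kB motif, the STAT6 motif (TTC, then any 4 bases, then GAA), the C/EBP motif TTGCNNAA, the GC box GGGCGG and the TATA motif TATAAA.
Igf1, chr10:87860861-87861160, plus strand: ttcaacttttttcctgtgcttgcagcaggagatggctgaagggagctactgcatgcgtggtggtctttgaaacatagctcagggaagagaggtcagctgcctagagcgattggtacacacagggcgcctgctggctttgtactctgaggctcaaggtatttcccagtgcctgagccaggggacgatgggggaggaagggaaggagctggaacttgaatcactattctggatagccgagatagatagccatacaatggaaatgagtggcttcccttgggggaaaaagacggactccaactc
Pdgfra, chr5:75152001-75152300, plus strand: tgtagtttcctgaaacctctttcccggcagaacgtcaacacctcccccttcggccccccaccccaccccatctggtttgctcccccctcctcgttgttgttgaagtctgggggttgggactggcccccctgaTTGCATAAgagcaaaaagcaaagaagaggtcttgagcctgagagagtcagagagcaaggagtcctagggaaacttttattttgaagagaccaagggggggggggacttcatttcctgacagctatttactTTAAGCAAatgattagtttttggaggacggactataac
Fgf7, chr2:126034408-126034707, plus strand: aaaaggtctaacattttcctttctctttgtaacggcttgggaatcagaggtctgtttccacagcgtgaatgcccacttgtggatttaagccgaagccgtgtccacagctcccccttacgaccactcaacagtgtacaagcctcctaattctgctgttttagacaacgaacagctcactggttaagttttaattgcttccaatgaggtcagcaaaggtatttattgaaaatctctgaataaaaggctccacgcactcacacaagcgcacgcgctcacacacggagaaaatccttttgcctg
Hgf, chr5:16553245-16553544, plus strand: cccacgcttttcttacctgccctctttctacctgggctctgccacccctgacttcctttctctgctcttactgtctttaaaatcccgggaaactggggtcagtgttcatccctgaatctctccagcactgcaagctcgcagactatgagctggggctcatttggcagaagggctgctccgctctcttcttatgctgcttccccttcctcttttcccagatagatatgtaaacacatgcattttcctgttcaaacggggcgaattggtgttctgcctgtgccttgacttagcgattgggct
Fgf2, chr3:37348403-37348702, plus strand: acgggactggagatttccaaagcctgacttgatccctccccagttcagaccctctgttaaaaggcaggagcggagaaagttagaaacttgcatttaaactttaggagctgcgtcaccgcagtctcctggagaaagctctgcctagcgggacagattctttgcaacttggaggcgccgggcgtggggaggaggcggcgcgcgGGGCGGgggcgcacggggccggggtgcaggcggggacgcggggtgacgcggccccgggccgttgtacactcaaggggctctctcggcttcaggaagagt
In these windows, and in the others of the 8 genes, no match to the NF-kB, STAT6 or TATA motif was found. Those motifs are in 4.50%, 6.94% and 13.6% of 32817 promoters of the same length. Pdgfra had 2 matches to the C/EBP motif, 1 starting 118 bases before the start and the other 12 bases after it, a motif found in 10.8% of promoters. The GC box, in 35.6% of promoters, was in Fgf2 at 49 bases before the start, and also in Fgf10, Fgf18 and Pdgfa. The GC content was 52.3% for Igf1, 51.0% for Pdgfra, 45.7% for Fgf7, 51.3% for Hgf and 62.7% for Fgf2, and the median of all promoters was 52.7%. A match is a description of letters and not a site of binding.

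Against untreated cells, the growth factors and the PDGF receptors went in different directions. Fgf2, Fgf7 and Hgf rose under the triple combination, Igf1 fell in all 4 cytokine groups, Pdgfrb fell in all 4 and Pdgfra fell wherever IL-13 was present. By limma with Benjamini-Hochberg adjustment over 13887 genes, called at an adjusted p under 0.05, 6 of the 8 genes tested were called with the triple combination (3 higher, 3 lower), where 42.7% of all genes were called. With IL-33 and IL-13, 4 of 8 were called, all lower, against 49.6% of all genes. With IL-33 and IL-17A, 6 of 8 were called (4 higher, 2 lower), against 37.7% of all genes. With IL-33 alone, 3 of 8 were called (1 higher, 2 lower), against 14.2% of all genes. These counts of 8 are read only beside those backgrounds, and 4 of 8 is near the background for IL-33 with IL-13. The 4 comparisons share the untreated libraries. With 3 libraries against 3, a two-sided exact permutation test of a single gene cannot go below p = 0.1, so none was used.

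**Figure D1:**
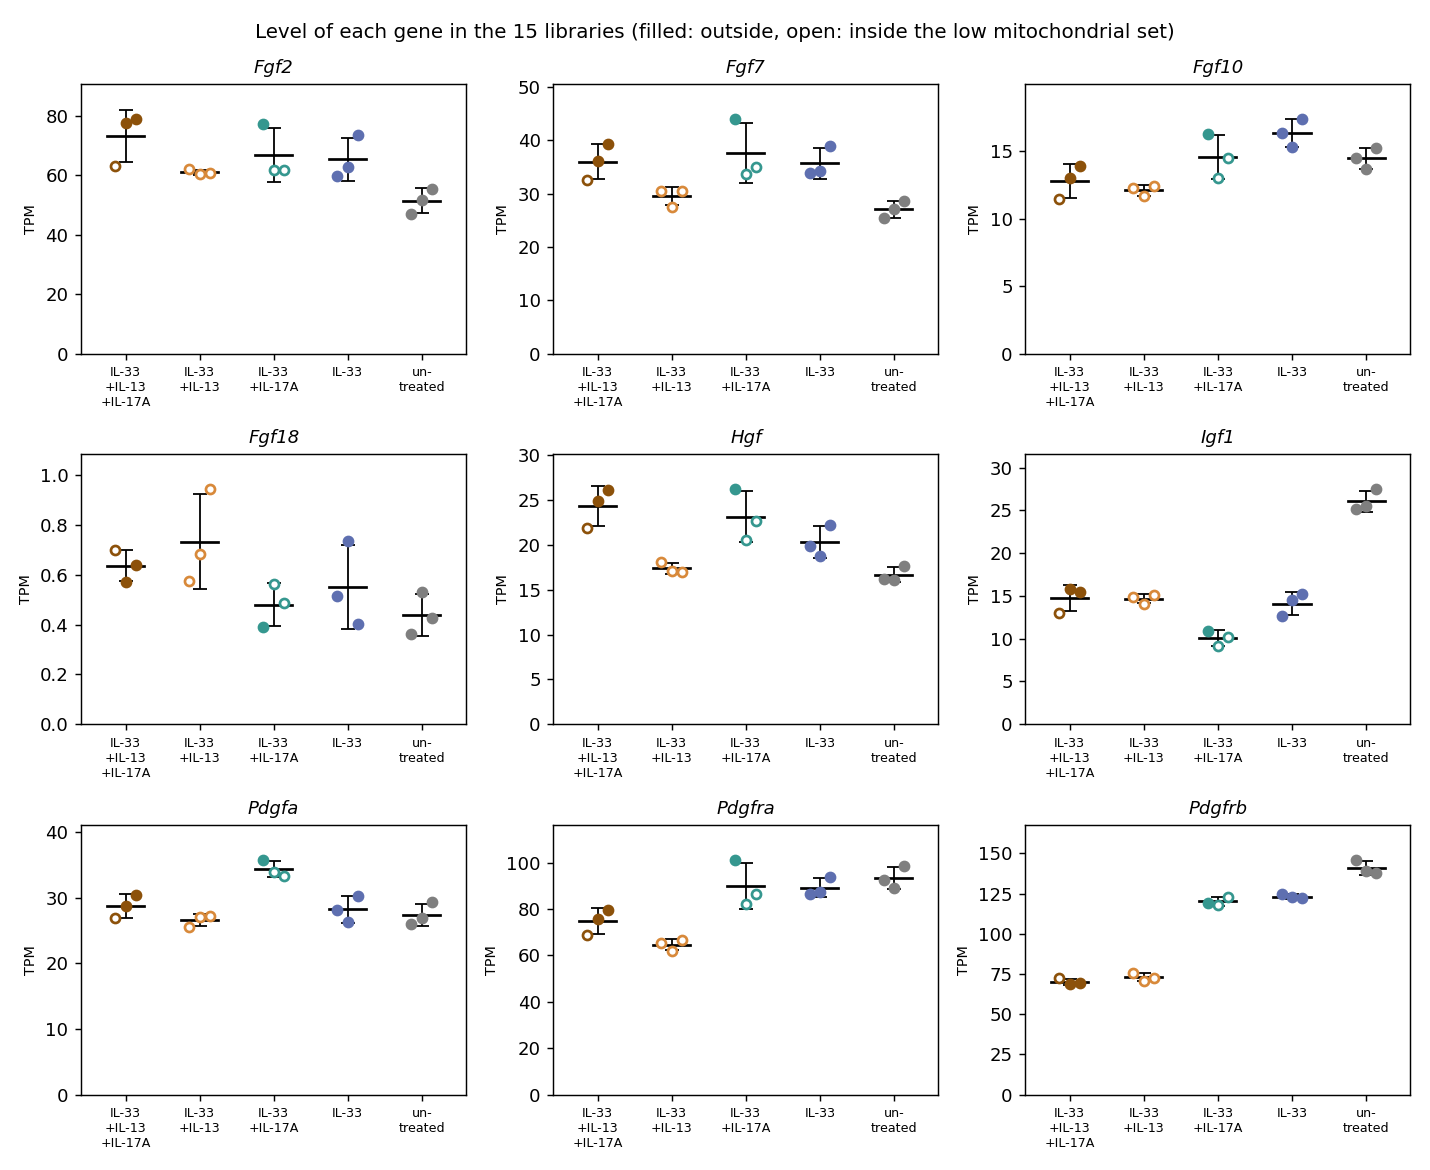
TPM of each of the 9 genes in every library, by group (triple combination at the left, untreated at the right), with the line at the mean and bars for the SD of 3 libraries. Filled points lie outside the low mitochondrial set and open points inside it. Igf1 is at 15.8 TPM or less in every cytokine library and at 25.2 TPM or more in untreated libraries, and Pdgfrb is at 75.4 TPM or less in the libraries with IL-13 and at 118 TPM or more in those without.

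Igf1 (ENSMUSG00000020053, chr10:87858265-87937042, plus strand, mm10), insulin-like growth factor 1, fell in every cytokine group. It was at 13.03, 15.8 and 15.5 TPM with the triple combination, 14.9, 14.1 and 15.1 TPM with IL-33 and IL-13, 10.9, 9.10 and 10.2 TPM with IL-33 and IL-17A, 12.6, 14.5 and 15.2 TPM with IL-33 alone, and 25.2, 25.5 and 27.5 TPM in untreated cells. No cytokine library overlapped the untreated ones, and the IL-17A libraries without IL-13 were the lowest of all. The log2 changes against untreated were -0.78 ± 0.09, adjusted p = 1.1e-05 for the triple combination, -0.79 ± 0.09, adjusted p = 1.3e-05 for IL-33 with IL-13, -1.29 ± 0.09, adjusted p = 1.5e-07 for IL-33 with IL-17A and -0.84 ± 0.09, adjusted p = 2.2e-05 for IL-33 alone (limma, standard errors). With IL-33 alone its mean was 45.9% below that of untreated cells. Adding IL-17A to IL-33 lowered Igf1 further, with a log2 change of -0.45 ± 0.09, adjusted p = 0.0052 (limma). With IL-13 also present, the triple combination was higher than IL-33 with IL-17A by 0.51 ± 0.09, adjusted p = 0.0015 (limma). The IL-13 by IL-17A interaction on Igf1 was 0.45 ± 0.12 and not called (limma, adjusted p = 0.085), but was called when replicate 1 of IL-33 with IL-17A (0.51, adjusted p = 0.018) or replicate 1 of the triple combination (0.54, adjusted p = 0.017) was left out. Without the first of these libraries, the interaction was called for 3038 of all 13887 genes, against 47 with every library. The fall with IL-17A was not called in a fit of the 2 groups alone (adjusted p = 0.067) or over the libraries outside the low mitochondrial set (-0.34, adjusted p = 0.2), and the rise with the triple combination was not called over those inside it (0.40, adjusted p = 0.077). The summed macrophage markers, from cells that also make Igf1, were at 91.1% of the untreated mean with the triple combination, 92.7% with IL-33 and IL-13, 98.6% with IL-33 and IL-17A and 97.0% with IL-33. Much of that sum was Lyz2, at 8738 TPM with the triple combination and 10299 TPM in untreated cells, and the members did not move together. Of 16 macrophage markers tested, 3 rose and 10 fell with the triple combination, 4 and 10 with IL-33 and IL-13, 3 and 8 under IL-33 and IL-17A, and 3 and 4 with IL-33. The higher and lower shares of all genes were 12.6% and 30.1%, 14.5% and 35.1%, 10.7% and 27%, and 5.92% and 8.28% in the same order. The part of macrophages in the fall of Igf1 was not tested.

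Fgf7 (ENSMUSG00000027208, chr2:126034658-126091185, plus strand), keratinocyte growth factor, and Hgf (ENSMUSG00000028864, chr5:16553495-16620152, plus strand), hepatocyte growth factor, are mitogens that mesenchyme supplies to epithelium. Fgf7 was at 32.6, 36.2 and 39.2 TPM with the triple combination, 30.4, 27.5 and 30.5 TPM with IL-33 and IL-13, 44.03, 33.7 and 35.1 TPM with IL-33 and IL-17A, 33.8, 34.3 and 39.03 TPM with IL-33 alone, and 25.5, 27.2 and 28.7 TPM in untreated cells. All groups but that with IL-33 and IL-13 lay wholly above the untreated libraries. The libraries with IL-33 and IL-13 all lie inside the low mitochondrial set and the untreated libraries all outside it. Libraries inside the set were lower in Fgf7 by -0.27 (limma, adjusted p = 0.026), so cytokine and set cannot be told apart there. The log2 change of Fgf7 against untreated was 0.40 ± 0.10, adjusted p = 0.0066 with the triple combination, 0.45 ± 0.10, adjusted p = 0.0039 with IL-33 and IL-17A and 0.38 ± 0.10, adjusted p = 0.021 with IL-33 alone (limma), and was 0.12 ± 0.10, adjusted p = 0.35 with IL-33 and IL-13. The call with IL-33 alone was lost without IL-33 replicate 3 (adjusted p = 0.078), untreated replicate 1 (0.08) or untreated replicate 2 (0.057). IL-33 with IL-13 was lower in Fgf7 than IL-33 with IL-17A with a log2 change of -0.33 ± 0.10, adjusted p = 0.039 (limma), a call lost without replicate 1 of IL-33 with IL-17A or without any 1 library of IL-33 with IL-13 (adjusted p 0.069 to 0.14).

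Hgf rose against untreated cells in both groups given IL-17A. It was at 21.9, 24.9 and 26.1 TPM with the triple combination, 18.1, 17.1 and 16.95 TPM with IL-33 and IL-13, 26.2, 20.5 and 22.7 TPM with IL-33 and IL-17A, 19.9, 18.8 and 22.2 TPM with IL-33 alone, and 16.2, 16.1 and 17.6 TPM in untreated cells. Both groups with IL-17A were the highest on average and lay wholly above the untreated libraries, as did IL-33 alone. Neither group with IL-17A was called against IL-33 alone, and the libraries of both overlapped those of IL-33 alone. That change was 0.25 ± 0.09, adjusted p = 0.064 for the triple combination and 0.18 ± 0.09, adjusted p = 0.24 for IL-33 with IL-17A (limma). The log2 change against untreated was 0.52 ± 0.09, adjusted p = 0.00052 with the triple combination and 0.45 ± 0.09, adjusted p = 0.0021 with IL-33 and IL-17A (limma). It was 0.27 ± 0.09, adjusted p = 0.067 with IL-33 alone and 0.06 ± 0.09, adjusted p = 0.61 with IL-33 and IL-13, neither called. The low mitochondrial set holds every library with IL-33 and IL-13 and no untreated library. Libraries inside it were lower in Hgf by -0.24 (limma, adjusted p = 0.03), so cytokine and set cannot be told apart in the last of these changes. The triple combination exceeded IL-33 with IL-13 by 0.46 ± 0.09, adjusted p = 0.0089 (limma), and this was the only one of the 8 genes called in that comparison, where 7.45% of all genes were called (3.4% higher, 4.05% lower). With a term for the low mitochondrial set it was 0.30 and not called (adjusted p = 0.056), and over the libraries inside the set it was 0.31 (adjusted p = 0.17). The short gene Gm43489 lies within Hgf on the same strand, with 21.6 reads on average against 1445 for Hgf.

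Fgf2 (ENSMUSG00000037225, chr3:37348346-37410108, plus strand), basic fibroblast growth factor, binds the mesenchymal receptor forms and lacks a classical secretion signal. It was at 63.2, 77.3 and 78.9 TPM with the triple combination, 61.98, 60.3 and 60.7 TPM with IL-33 and IL-13, 77.2, 61.6 and 61.7 TPM with IL-33 and IL-17A, 59.7, 62.7 and 73.5 TPM with IL-33 alone, and 47.1, 51.8 and 55.4 TPM in untreated cells. Every cytokine group lay wholly above the untreated libraries. The log2 change was 0.50 ± 0.11, adjusted p = 0.0029 for the triple combination and 0.37 ± 0.11, adjusted p = 0.02 for IL-33 with IL-17A (limma). For IL-33 with IL-13 it was 0.25 ± 0.11, adjusted p = 0.081 and for IL-33 alone 0.34 ± 0.11, adjusted p = 0.061, neither called. The low mitochondrial set holds every library with IL-33 and IL-13 and no untreated library, so cytokine and set cannot be told apart there. Libraries inside the set were lower in Fgf2 by -0.31 (limma, adjusted p = 0.02). The call with IL-33 and IL-17A was lost without replicate 1 of that group (0.26, adjusted p = 0.065) or untreated replicate 1 (adjusted p = 0.073), and in a fit of those groups alone (adjusted p = 0.054). The antisense genes Nudt6 and Fgf2os, which overlap it, averaged 26.1 and 13.7 reads against 4171 for Fgf2, and whether strand was used in counting is not given in the sources used here.

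Fgf10 (ENSMUSG00000021732, chr13:118669791-118792115, plus strand), the ligand that drives lung budding, fell when IL-13 was added to IL-33. It was at 11.5, 13.01 and 13.9 TPM with the triple combination, 12.3, 11.6 and 12.4 TPM with IL-33 and IL-13, 16.3, 12.98 and 14.5 TPM with IL-33 and IL-17A, 16.3, 15.3 and 17.4 TPM with IL-33 alone, and 14.5, 13.7 and 15.3 TPM in untreated cells. The libraries with IL-33 and IL-13 were below all of the IL-33 and the untreated libraries. Adding IL-13 to IL-33 changed Fgf10 by -0.40 ± 0.08, adjusted p = 0.0038, and the triple combination was below IL-33 alone with a log2 change of -0.33 ± 0.08, adjusted p = 0.011 (limma). Against untreated cells the change with IL-33 and IL-13 was -0.24 ± 0.08, adjusted p = 0.031 (limma), a call lost without any 1 library of that group or without untreated replicate 1 or 3 (adjusted p 0.051 to 0.1), and also when libraries were scaled by median ratio so that the typical gene did not change (-0.10, adjusted p = 0.23) or by recovered reads (-0.12, adjusted p = 0.14). With the low mitochondrial term the first of these was -0.18 and not called (adjusted p = 0.23) and the last was -0.02 (adjusted p = 0.91). All 3 libraries of that group lie in that set, so within that group the cytokine and the set cannot be told apart.

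Fgf18 (ENSMUSG00000057967, chr11:33117430-33147400, minus strand), a growth factor of lung development, was low in every group. It was at 0.700, 0.573 and 0.640 TPM with the triple combination, 0.574, 0.683 and 0.944 TPM with IL-33 and IL-13, 0.390, 0.562 and 0.487 TPM with IL-33 and IL-17A, 0.515, 0.736 and 0.405 TPM with IL-33, and 0.364, 0.530 and 0.426 TPM in untreated cells. These values rest on 11 to 32 reads per library. With no filter, over 18078 genes, IL-33 with IL-13 was higher than untreated by 0.26 ± 0.09 (limma, adjusted p = 0.038), and the other 3 changes against untreated were not called. The libraries with IL-33 and IL-13 all lie inside the low mitochondrial set and the untreated libraries all outside it. Fgf18 was not in the fit with a term for that set. It was at 0.525 TPM inside and 0.390 outside the set with IL-33 and IL-17A, and at 0.700 and 0.606 with the triple combination. Cytokine and set thus cannot be told apart in that call.

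Pdgfa (ENSMUSG00000025856, chr5:138976014-138997370, minus strand), the ligand of Pdgfra, rose with IL-33 and IL-17A. It was at 26.9, 28.7 and 30.5 TPM with the triple combination, 25.5, 27.1 and 27.1 TPM with IL-33 and IL-13, 35.7, 33.96 and 33.3 TPM with IL-33 and IL-17A, 28.04, 26.2 and 30.3 TPM with IL-33 alone, and 26.1, 26.8 and 29.3 TPM in untreated cells. The 3 libraries with IL-33 and IL-17A were the highest 3 of all 15. The log2 change of IL-33 with IL-17A was 0.32 ± 0.06, adjusted p = 0.0019 against untreated and 0.28 ± 0.06, adjusted p = 0.014 against IL-33 alone (limma). With IL-13 added the triple combination was lower than IL-33 with IL-17A with a log2 change of -0.25 ± 0.06, adjusted p = 0.017 (limma). The change against IL-33 was lost without IL-33 replicate 2 (0.23, adjusted p = 0.068), in a fit of those groups alone (0.091) and outside the low mitochondrial set (0.17), and the change against the triple combination without triple replicate 1 (adjusted p = 0.052) or 2 (0.051). The antisense transcript 6330403L08Rik lies over Pdgfa with 210 reads on average against 661 for Pdgfa, so Pdgfa values are uncertain if strand was not used.

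Both PDGF receptors fell against untreated cells where IL-13 was present. Pdgfrb (ENSMUSG00000024620, chr18:61045150-61085061, plus strand) was at 72.4, 68.7 and 69.2 TPM with the triple combination, 75.4, 70.4 and 72.8 TPM with IL-33 and IL-13, 119, 118 and 123 TPM with IL-33 and IL-17A, 125, 123 and 122 TPM with IL-33 alone, and 146, 139 and 138 TPM in untreated cells. The 6 libraries with IL-13 did not overlap the 9 without it. Adding IL-13 to IL-33 changed Pdgfrb by -0.75 ± 0.04, adjusted p = 3.1e-08, and adding it to IL-33 and IL-17A by -0.77 ± 0.04, adjusted p = 3.4e-08 (limma). The change against untreated was -0.998 ± 0.04, adjusted p = 2.6e-10 with the triple combination, -0.94 ± 0.04, adjusted p = 7.4e-10 with IL-33 and IL-13, -0.23 ± 0.04, adjusted p = 0.00032 with IL-33 and IL-17A and -0.19 ± 0.04, adjusted p = 0.0026 with IL-33 alone (limma). The changes without IL-13 were not called under that scaling by the typical gene (-0.11, adjusted p = 0.11 with IL-17A and -0.14, adjusted p = 0.099 with IL-33 alone). The smooth muscle and pericyte markers, 8 of 9 in the files, with Des highest at 47.6 TPM, summed to 50.6 to 54.8 TPM with the triple combination, 79.0 to 82.6 with IL-33 and IL-13, 66.0 to 70.3 with IL-33 and IL-17A, 123 to 132 with IL-33 and 222 to 227 in untreated cells. That sum was lower in every cytokine group, and lower with IL-17A than with IL-13 beside IL-33. Of 6 of these markers tested, 0 rose and 5 fell in each cytokine group against untreated. Of all genes, 12.6% rose and 30.1% fell with the triple combination, 14.5% and 35.1% with IL-33 and IL-13, 10.7% and 27% under IL-33 and IL-17A, and 5.92% and 8.28% with IL-33. IL-33 with IL-13 against IL-33 with IL-17A called 1 of the 6 higher and 0 lower, beside 7.54% and 9.3% of all genes. The part of these cells in the fall of Pdgfrb was not tested.

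Pdgfra (ENSMUSG00000029231, chr5:75152292-75198215, plus strand), the receptor on most lung fibroblasts, was at 68.7, 75.7 and 79.7 TPM with the triple combination, 65.3, 61.99 and 66.7 TPM with IL-33 and IL-13, 101, 82.3 and 86.3 TPM with IL-33 and IL-17A, 86.4, 87.3 and 93.9 TPM with IL-33 alone, and 92.7, 89.2 and 98.7 TPM in untreated cells. The 6 libraries with IL-13 lay below the 9 others. The change against untreated was -0.32 ± 0.08, adjusted p = 0.0045 with the triple combination and -0.53 ± 0.08, adjusted p = 0.00014 with IL-33 and IL-13 (limma), and was -0.06 ± 0.08, adjusted p = 0.57 with IL-33 and IL-17A and -0.07 ± 0.08, adjusted p = 0.63 with IL-33 alone, neither called. Adding IL-13 to IL-33 changed Pdgfra by -0.46 ± 0.08, adjusted p = 0.00097, and the triple combination was below IL-33 alone with a log2 change of -0.25 ± 0.08, adjusted p = 0.028 and below IL-33 with IL-17A with a log2 change of -0.26 ± 0.08, adjusted p = 0.035 (limma). The first was not called with the low mitochondrial term (-0.24, adjusted p = 0.054). The second was lost without IL-33 replicate 2 or 3 or triple replicate 1 or 2 (adjusted p 0.055 to 0.11), and the third without replicate 1 or 3 of IL-33 with IL-17A or triple replicate 1 or 2 (0.058 to 0.1). The ratio of Pdgfrb to Pdgfra levels, rescaled to exon length with every read taken as exonic, was 1.4998 with the triple combination, 1.79 with IL-33 and IL-13, 2.14 with IL-33 and IL-17A, 2.20 with IL-33 and 2.40 in untreated cells, as a description with no test. The summed fibroblast markers were at 66.6% of the untreated mean with the triple combination, 75.6% with IL-33 and IL-13, 79.9% with IL-33 and IL-17A and 88.5% with IL-33. Of 15 tested, 6 rose and 9 fell with the triple combination, 5 and 9 with IL-33 and IL-13, 4 and 9 under IL-33 and IL-17A, and 4 and 6 with IL-33. The higher and lower shares of all genes were 12.6% and 30.1%, 14.5% and 35.1%, 10.7% and 27%, and 5.92% and 8.28% in the same order. The part of what moved the fibroblast markers in the fall of Pdgfra was not tested.

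**Figure D2:**
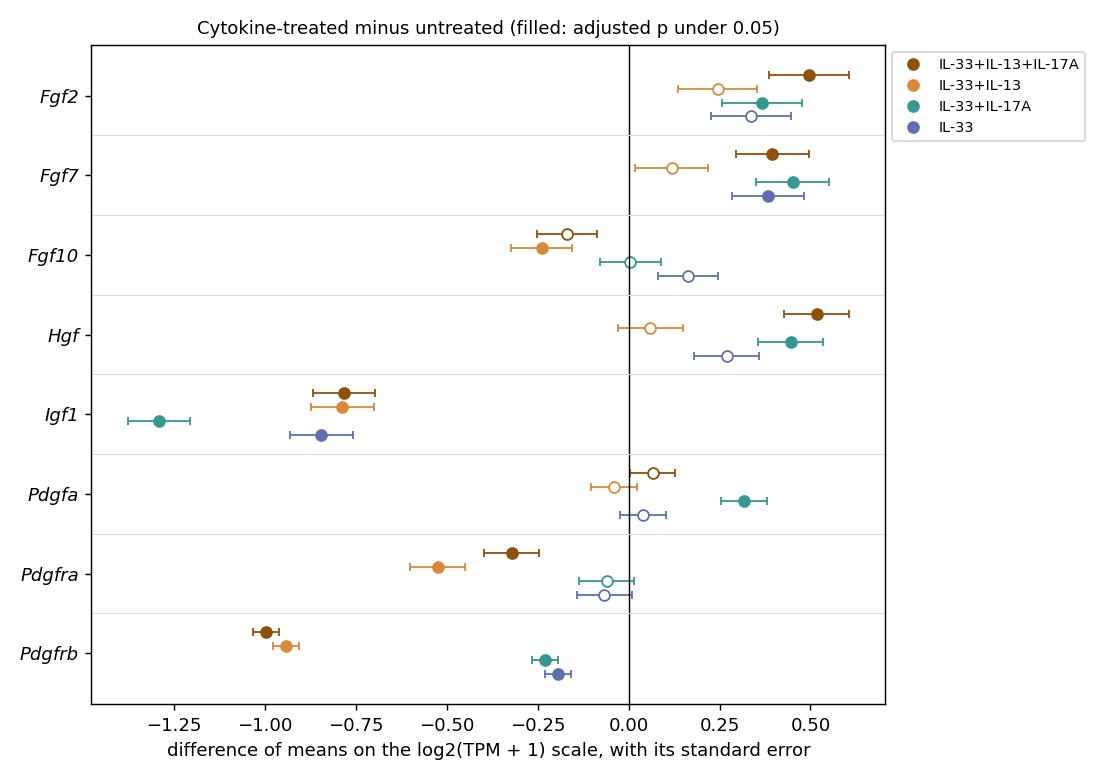
Difference of each cytokine group from untreated cells for the 8 genes tested, on the log2(TPM + 1) scale with standard errors. Filled points have an adjusted p under 0.05 in limma. Igf1 and Pdgfrb lie left of 0 in all 4 groups, and Fgf2, Fgf7 and Hgf lie right of 0 in all 4 with calls only where filled.

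Between cytokine groups, the receptors and Fgf10 were called where IL-13 was added to IL-33, and Igf1 and Pdgfa where IL-17A was. Whether these sets of genes differ was not tested. Adding IL-13 to IL-33 called 3 of 8 (Fgf10, Pdgfra and Pdgfrb, all lower), where 32.4% of all genes were called (10% higher, 22.4% lower). That count of 3 of 8 is near the background. The IL-33 libraries all lie outside the low mitochondrial set and those with IL-33 and IL-13 all inside it, and with its term only Pdgfrb was still called. Adding IL-17A to IL-33 called 2 of 8 (Pdgfa higher, Igf1 lower), where 9.76% of all genes were called (3.54% higher, 6.22% lower). The triple combination against IL-33 alone called Fgf10, Pdgfra and Pdgfrb, all lower, where 24.7% of all genes were called (8.2% higher, 16.5% lower). Against IL-33 with IL-17A the triple combination called Igf1 higher and Pdgfa, Pdgfra and Pdgfrb lower, where 15.8% of all genes were called (6.7% higher, 9.14% lower). IL-33 with IL-13 against IL-33 with IL-17A called 6 of 8, with Igf1 higher and Fgf7, Hgf, Pdgfa, Pdgfra and Pdgfrb lower, where 16.8% of all genes were called (7.54% higher, 9.3% lower). The IL-13 by IL-17A interaction was called for 0 of 8 genes by limma, where 0.338% of all genes were called (0.158% higher, 0.18% lower). At an unadjusted p under 0.05 Igf1 and Hgf passed. Rescaled reads recovered from the values, an alternative added after seeing the data, called Igf1 (0.42, limma, adjusted p = 0.023). That alternative called 3.62% of all genes higher and 4.45% lower. Without replicate 1 of IL-33 with IL-17A, the interaction was also called for Hgf (0.37, adjusted p = 0.04) and Pdgfra (0.28, adjusted p = 0.042). In that fit 3038 of all 13887 genes were called, against 47 with every library, so these calls are not particular to the described genes.

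**Figure D3:**
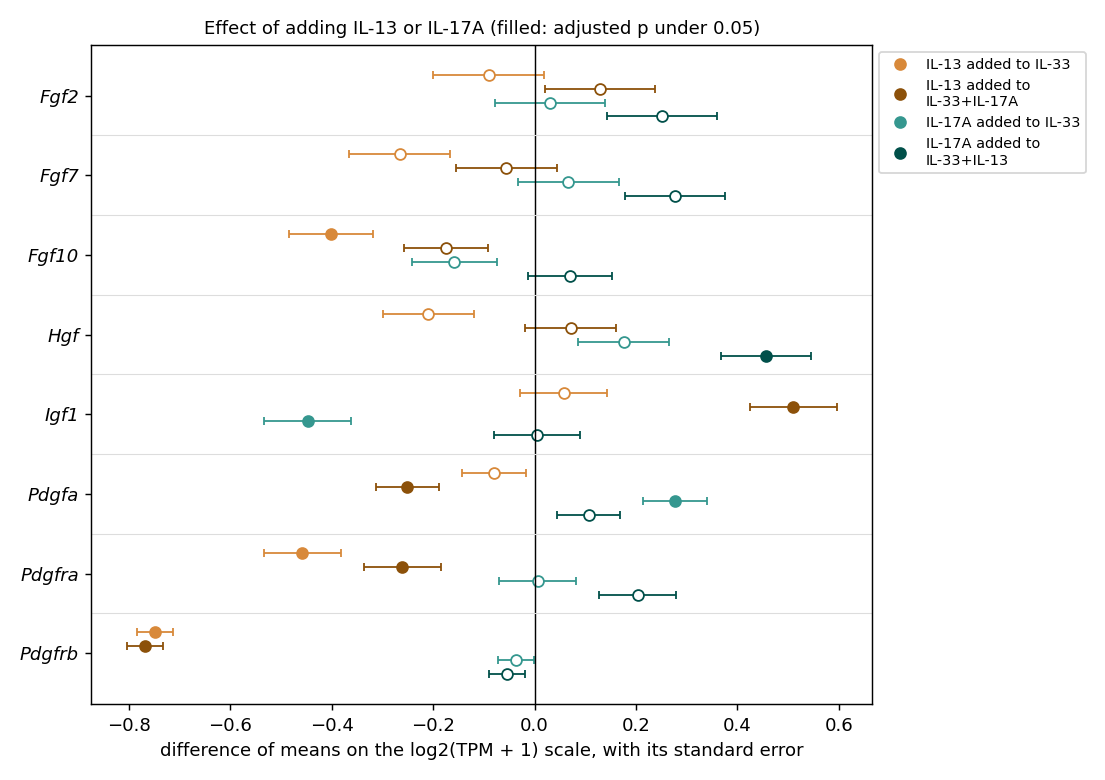
Effect of adding IL-13 to IL-33 or to IL-33 with IL-17A, and of adding IL-17A to IL-33 or to IL-33 with IL-13, on the log2(TPM + 1) scale with standard errors. Filled points have an adjusted p under 0.05. Pdgfrb lies left of 0 by about the same distance for both IL-13 additions.

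Rescaled to exon length and averaged over all 15 libraries, Pdgfrb stood at 254 TPM, followed by Fgf2 at 192.2, Fgf7 at 191.9, Pdgfra at 125, Fgf10 at 124, Pdgfa at 66.0, Hgf at 62.8, Igf1 at 41.9 and Fgf18 at 4.78 TPM. This rescaling takes every read as exonic, and whether reads in introns were counted is not given in the sources used here. The span was 26.6 times the exon length for Fgf10, 17.4 times for Fgf7 and 4.58 times for Pdgfra. Levels of different genes are thus compared only under that assumption. The order differed by group. With the triple combination Fgf2 at 223 and Fgf7 at 210.0 stood above Pdgfrb at 171, and with IL-33 and IL-13 Fgf2 at 186 stood above Pdgfrb at 178. In untreated cells Igf1 at 67.4 stood above Pdgfa at 61.0 and Hgf at 50.2. In the order of group levels, Igf1 had untreated above the triple combination (adjusted p = 1.1e-05) and IL-33 above IL-33 with IL-17A (0.0052) as the only neighbours that differed by limma. Pdgfa had IL-33 with IL-17A above the triple combination, Pdgfra had IL-33 above the triple combination, and Pdgfrb had untreated above IL-33 and IL-33 with IL-17A above IL-33 with IL-13. No other neighbours in the order of any of the 8 genes differed by that test.

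**Figure D4:**
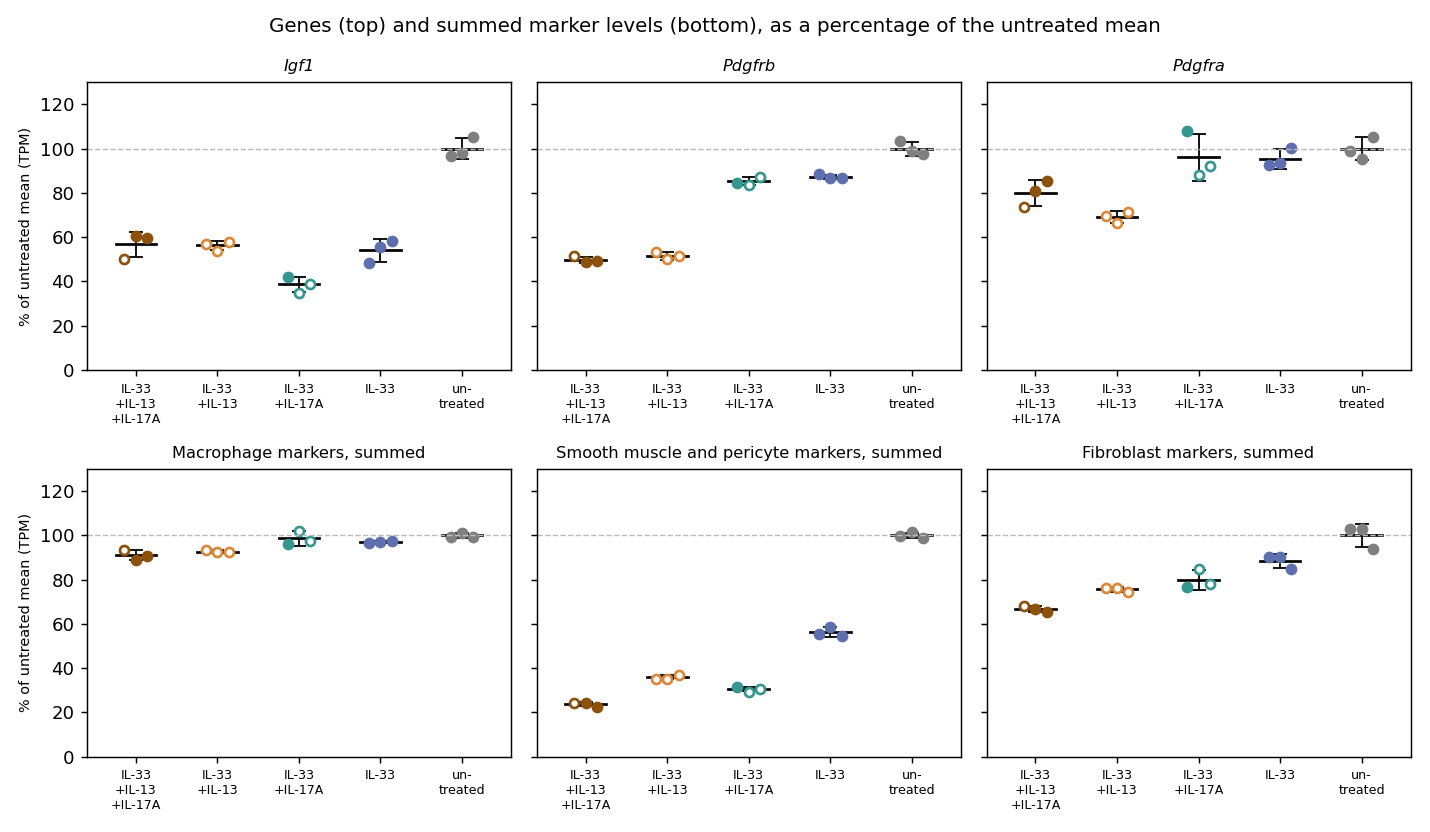
Igf1, Pdgfrb and Pdgfra in every library (top) and the summed macrophage, smooth muscle and pericyte, and fibroblast markers (bottom), each as a percentage of the untreated mean. The macrophage sum, much of it Lyz2, averages 91.1% to 98.6% of untreated in the cytokine groups, with single markers called in both directions, while the smooth muscle and pericyte sum is at 23.8% with the triple combination.

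Membership of the low mitochondrial set moved with several of these genes, and its part in the cytokine differences was not tested beyond the fits given here. Over all groups in 1 fit, libraries inside the set were lower than those outside by -0.31 for Fgf2 (limma, adjusted p = 0.02), -0.27 for Fgf7 (0.026), -0.22 for Fgf10 (0.033), -0.24 for Hgf (0.03) and -0.22 for Pdgfra (0.018). Igf1 (-0.21, 0.064), Pdgfa (-0.11, 0.24) and Pdgfrb (0.04, 0.46) were not called. Scaling also matters to the split of calls. As deposited, the median of all genes was -0.12 with IL-33 and IL-13, -0.10 with the triple combination and -0.09 with IL-33 and IL-17A against untreated, and scaling by the typical gene brought these to 0.01. Against untreated, the share of all genes called higher and lower was 20.4% and 18.5% under that scaling with the triple combination (12.6% and 30.1% as deposited), 24.4% and 21.8% with IL-33 and IL-13 (14.5% and 35.1%), 17.8% and 15.7% under IL-33 and IL-17A (10.7% and 27%), and 7.99% and 6.14% with IL-33 (5.92% and 8.28%). Between cytokine groups it was 16.6% and 14.7% for IL-13 added to IL-33 (10% and 22.4% as deposited), 5.15% and 4.52% for IL-17A added to IL-33 (3.54% and 6.22%), and 12.7% and 11.5% for the triple combination against IL-33 (8.2% and 16.5%). Of the 8 genes, 4 were then higher and 3 lower with the triple combination, 3 and 3 with IL-33 and IL-13, 4 and 1 under IL-33 and IL-17A, and 4 and 1 with IL-33. With IL-33 and IL-13 the 3 higher were Fgf2 (0.39), Fgf7 (0.26) and Hgf (0.20).

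The genes around these factors were read from lists of receptors, ligands, feedback targets and binding proteins. Of 84 listed, 72 were in the files and 55 were tested. The 55 include Fgf23, with 0 reads in each untreated library, which passed the filter on low values only through the triple combination. Its place among the counts of genes that rose thus gives no support. In the triple combination against untreated 18 rose and 16 fell, with IL-33 and IL-13 19 rose and 20 fell, with IL-33 and IL-17A 21 rose and 16 fell, and with IL-33 alone 12 rose and 10 fell (under the typical-gene scaling 25 and 13, 23 and 14, 25 and 14, and 14 and 7). Of all genes tested, 12.6% rose and 30.1% fell with the triple combination against untreated, 14.5% and 35.1% with IL-33 and IL-13, 10.7% and 27% under IL-33 and IL-17A, and 5.92% and 8.28% with IL-33. The lists were chosen with results of these data known, and their counts are read only beside these shares. With the low mitochondrial term 19 rose and 17 fell with the triple combination and 19 and 14 with IL-33 and IL-13. It was 19 and 14 under IL-33 and IL-17A and 13 and 13 with IL-33. When IL-13 was added to IL-33, 10 rose and 15 fell (10% and 22.4% of all genes), and 6 and 8 with that term. The IL-33 libraries all lie outside that set and those with IL-33 and IL-13 all inside it. Changes of single list genes given below for that addition are without the term.

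Of the receptors, Fgfr1, the mesenchymal FGF receptor, was at 72.1 ± 0.581 TPM with the triple combination, 68.6 ± 1.14 with IL-33 and IL-13 and 75.5 ± 1.11 in untreated cells (SD, n = 3 each). It was lower with IL-33 and IL-13 than with IL-33 (-0.16 ± 0.04, adjusted p = 0.0053, limma), a call not kept under the typical-gene scaling (-0.07, adjusted p = 0.15). Fgfr2, whose epithelial splice form binds Fgf7 and Fgf10, and Met, the Hgf receptor, were under 1 TPM and were not tested. Igf1r, the receptor of Igf1, averaged 3.30 ± 0.226 TPM with the triple combination, 3.41 ± 0.0854 with IL-33 and IL-13, 4.02 ± 0.308 with IL-33 and IL-17A, 5.05 ± 0.302 with IL-33 and 5.93 ± 0.247 in untreated cells (SD, n = 3). Its change was -0.69 ± 0.06, adjusted p = 1.9e-06 with the triple combination and -0.45 ± 0.06, adjusted p = 0.00024 when IL-13 was added to IL-33 (limma). For that addition 3 of 6 IGF ligand and receptor genes were called lower, and 1 with the low mitochondrial term, where 22.4% of all genes were called lower without it.

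The list of IGF binding proteins holds carriers of the ligand and the proteins that cut them or protect them. Of 9 tested, 4 rose and 2 fell with the triple combination against untreated, 5 and 2 with IL-33 and IL-13, 5 and 4 under IL-33 and IL-17A, and 2 and 3 with IL-33, where the higher and lower shares of all genes were 12.6% and 30.1%, 14.5% and 35.1%, 10.7% and 27%, and 5.92% and 8.28%. Igfbp3, the main circulating IGF carrier, was at 289.8 ± 16.2 TPM with the triple combination and 316 ± 11.8 with IL-33 and IL-13, against 71.95 ± 4.28 with IL-33 and IL-17A, 95.8 ± 6.92 with IL-33 and 93.1 ± 3.67 in untreated cells (SD, n = 3 each). Adding IL-13 to IL-33 changed it by 1.71 ± 0.06, adjusted p = 2.8e-09 (limma). Pappa, the protease that cleaves IGF-binding proteins, was lower in each cytokine group than in untreated cells, at 2.95 ± 0.384 TPM with the triple combination, 3.37 ± 0.0550 with IL-33 and IL-13, 8.11 ± 1.07 with IL-33 and IL-17A, 13.7 ± 0.872 with IL-33 and 22.3 ± 0.789 in untreated cells. The change of Pappa against untreated was -2.56 ± 0.09, adjusted p = 1.3e-10 with the triple combination and -0.66 ± 0.09, adjusted p = 0.00017 with IL-33 alone (limma). Igfbp5 rose with IL-17A, by 0.75 ± 0.06, adjusted p = 7.5e-06 over IL-33 alone, and Igfbp6 rose with IL-13, by 0.996 ± 0.08, adjusted p = 2.8e-06 (limma). Stc1, an inhibitor of Pappa, was 72.1 ± 12.04 TPM with IL-33 and IL-17A and 24.8 ± 0.722 with IL-33 and IL-13.

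The targets and inhibitors of FGF receptor signalling gave 7 higher and 1 lower of 12 with the triple combination, 5 and 3 with IL-33 and IL-13, 6 and 3 under IL-33 and IL-17A and 5 and 1 with IL-33. The higher and lower shares of all genes were 12.6% and 30.1% with the triple combination and 5.92% and 8.28% with IL-33, with the other groups as for the binding proteins. Dusp6, the phosphatase of ERK, was at 443 ± 22.1 TPM with the triple combination and 230.0 ± 3.38 in untreated cells, with a change of 0.94 ± 0.04, adjusted p = 1.2e-09 (limma). Spry1, a Sprouty inhibitor, fell to 20.04 ± 1.89 TPM with the triple combination against 56.2 ± 3.09 in untreated cells (-1.44 ± 0.08, adjusted p = 2.2e-08, limma), while Spry2 was at 177 ± 9.14 TPM with IL-33 and IL-17A against 85.7 ± 7.45 in untreated cells (1.04 ± 0.07, adjusted p = 1.4e-07, limma). Of 5 genes of the Hgf axis tested, 2 rose and 0 fell with the triple combination, 2 and 0 with IL-33 and IL-13, 3 and 0 under IL-33 and IL-17A and 1 and 0 with IL-33, beside the same shares of all genes. Plau, the urokinase that activates Hgf, was at 1239 ± 63.9 TPM with the triple combination against 549 ± 13.3 in untreated cells (1.17 ± 0.04, adjusted p = 1.8e-10, limma).

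Of 17 other FGF ligands listed, 10 were in the files and 3 were tested. Fgf23, among those tested, is a hormone of phosphate balance made mainly by bone. It held 40 to 49 reads in the triple combination, 9 to 11 with IL-33 and IL-13, 4 to 7 with IL-33 and IL-17A, 2 to 5 with IL-33 and 0 in each untreated library, and it averaged 4.80 TPM with the triple combination. A count of 0 allows up to 3 reads per untreated library. The observed mean was 12.8 times that limit with the triple combination and 2.71 times with IL-33 and IL-13. It was 1.31 times the limit for IL-33 with IL-17A and 1.19 times for IL-33, where 1 library was under the limit. Counting error in the observed means is not covered, so these ratios are not lower bounds. Fgf23 passed the filter on low values only through the triple combination, so its comparisons are given from the fit of all 18078 genes with no filter. There the triple combination was higher than IL-33 with IL-13 by 1.52 ± 0.10 (limma, adjusted p = 3.9e-06) and than IL-33 with IL-17A by 1.96 ± 0.10 (limma, adjusted p = 2.1e-07), on the log2(TPM + 1) scale.

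Of the list of 5 named for PDGF ligands, Pdgfb, Pdgfc, Pdgfrl and Plat were tested. Pdgfrl, a receptor-like gene, and Plat, a protease, are not ligands, so counts and medians of the list are not those of ligands alone. Pdgfa, which rose with IL-33 and IL-17A, was not in this list. All 4 were called lower with the triple combination and when IL-13 or IL-17A was given with IL-33, and 1 with IL-33. Of all genes, 30.1% were called lower with the triple combination, 35.1% with IL-33 and IL-13, 27% under IL-33 and IL-17A, and 8.28% with IL-33. The medians of the list against untreated were -0.69, -0.42, -0.42 and -0.23, beside medians over all genes of -0.10, -0.12, -0.09 and -0.05. Under the typical-gene scaling 3, 3, 4 and 1 were called lower. Pdgfb, a ligand of Pdgfrb, was at 3.42 ± 0.629 TPM with the triple combination, 3.996 ± 0.614 with IL-33 and IL-13, 5.83 ± 0.772 with IL-33 and IL-17A, 6.55 ± 0.403 with IL-33 and 8.95 ± 1.53 in untreated cells (SD, n = 3 each), with a change of -1.17 ± 0.14, adjusted p = 1.9e-05 for the triple combination (limma). Plat, the protease that activates Pdgfc, changed by -0.84 ± 0.07, adjusted p = 7.3e-07 (limma). 

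**Figure D5:**
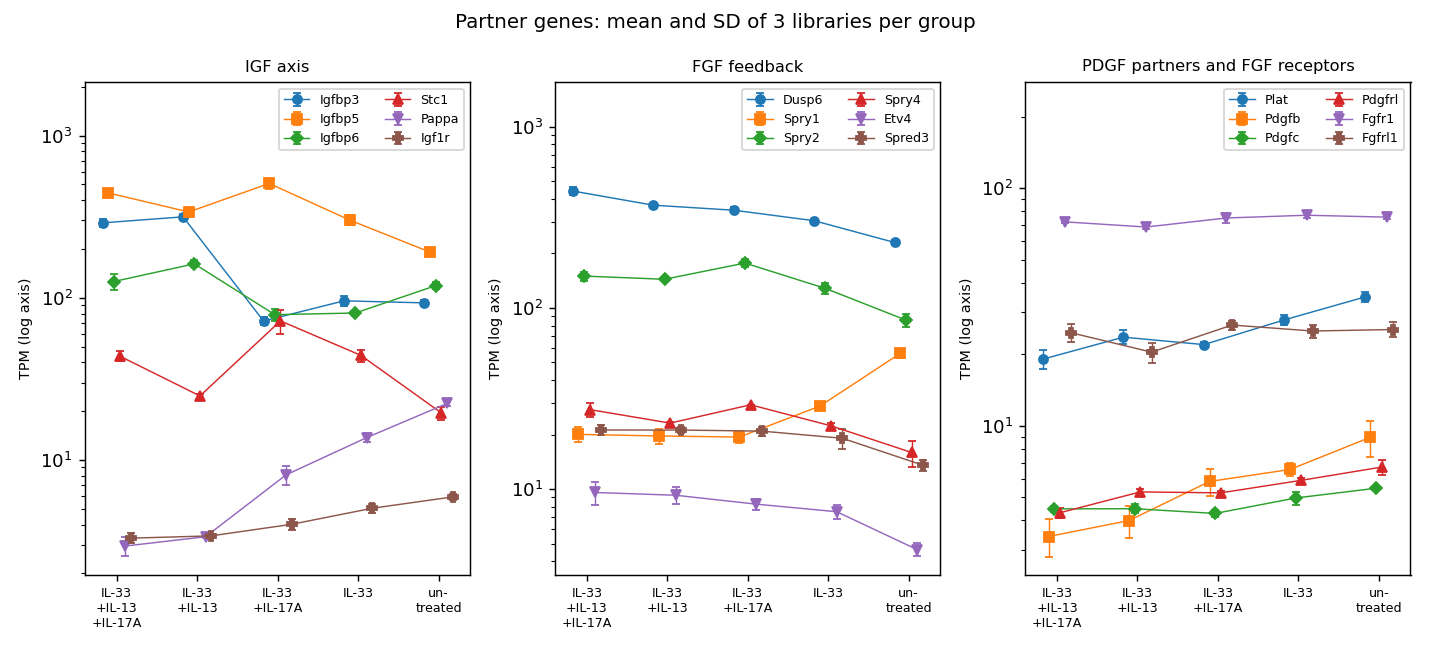
Mean and SD (n = 3) in TPM on a log axis of partner genes in the 5 groups: the IGF axis, FGF feedback genes, and PDGF partners with FGF receptors. Igfbp3 is at 290 TPM with the triple combination and 93.1 TPM in untreated cells, and Pappa is at 2.95 TPM with the triple combination and 22.3 TPM in untreated cells.

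The heparan sulfate proteoglycans, cofactors of FGF and HGF binding, gave 3 higher and 2 lower of 6 in each group with IL-13 or IL-17A against untreated, and 2 and 2 with IL-33. Of all genes, 12.6% rose and 30.1% fell with the triple combination, 14.5% and 35.1% with IL-33 and IL-13, 10.7% and 27% under IL-33 and IL-17A, and 5.92% and 8.28% with IL-33. Sdc1 was at 136 ± 8.10 TPM with the triple combination and 103 ± 5.18 in untreated cells (0.40 ± 0.06, adjusted p = 0.00012, limma), and Gpc4 was at 12.7 ± 0.715 and 26.7 ± 0.718 TPM in the same groups (-1.02 ± 0.07, adjusted p = 9.1e-08, limma). Lipofibroblasts are lung fibroblasts that store lipid and make Fgf10. Of 7 of their genes tested, 0 rose and 3 fell with the triple combination, 1 and 4 with IL-33 and IL-13, 2 and 1 under IL-33 and IL-17A, and 0 and 2 with IL-33, beside the same shares of all genes. Tcf21, a transcription factor of these cells, was at 5.31 ± 0.603 TPM with the triple combination and 12.8 ± 1.37 in untreated cells (-1.13 ± 0.17, adjusted p = 0.00015, limma). Of 6 IGF ligand and receptor genes, 1 rose and 4 fell with the triple combination, and of 3 FGF receptor genes 0 were called there.

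Genes whose level over the 15 libraries was most like that of each factor are given as a description, and all share libraries, depth and scaling. For Igf1 they were Mthfd2 (r = 0.97), F2r (0.96) and Oxct1 (0.96), and for Pdgfrb Dkk3 (0.99), Mpeg1 (0.98), a macrophage gene, and Ccn5 (0.98). For Pdgfra they included Lpar1 and Ubr1 (0.97 each), for Hgf Pitpnc1 (0.96), Gfpt2 (0.96) and Sc5d (0.95), and for Fgf7 Tgfbr3 (0.97), Mgat4a (0.96) and Lilrb4a (0.95). For Fgf2 they were Gpd2 (0.96), Idi1 (0.95) and Wfdc17 (0.95), for Fgf10 Cd200r4 (0.95), Rnf170 (0.95) and Sav1 (0.94), and for Pdgfa Pip5k1a (0.90), Tmem38b (0.88) and Cx3cl1 (0.88).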

How the data were processed

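The deposited values are TPM per Ensembl gene, 1 file per library, made by the authors from total RNA sequenced on a NovaSeq instrument, per the labels' protocols. HISAT2 (version not given) and mm10 are named in the submitters' processing notes. The program behind the TPM, its use of strand and of multi-mapping reads are unstated: not given in the sources used here. TPM multiplied by gene span came in whole multiples of a unit per library for 88.8 to 90.3% of low values (within 0.03 of a whole read), but for 17.9 to 19.3% by exon length. Reads were recovered from that unit, and intervals from them cover counting error only. Of 135 values of the described genes, 68 were within 0.03 of a whole read. These were all 15 for Fgf10, Fgf18 and Igf1 and 12 for Fgf7. They were 5 for Pdgfra, 3 for Pdgfrb, 2 for Pdgfa, 1 for Fgf2 and 0 for Hgf. Read counts given for genes with few such values are thus approximate, and the reason was not tested.

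Each of the 5 groups had 3 libraries. limma 3.58.1 (R 4.3.3, trend and robust) was fitted to log2(TPM + 1) over all 15 libraries with a mean per group, for genes that reached 1 TPM in 3 libraries or more, with Benjamini-Hochberg adjustment over 13887 genes. The pseudocount understates changes of low genes. The interaction is the effect of IL-17A with IL-13 minus that without it, all under IL-33. Tables and figures used Python 3.11.15, pandas 2.3.3, numpy 2.4.6 and matplotlib 3.10.9. Alternatives were scaling by median ratio, no filter or another pseudocount, fits of the compared groups only, each library left out, a low mitochondrial term, and, added after seeing the data, RPM from recovered reads and fits inside or outside that set. The genes and lists were chosen with earlier results of these data known. Of the other genes of the pathway lists, those called were named, at most 3 per list and comparison by size of change, and receptors and PDGF genes at any value. The 3 genes most like each described gene were named by Pearson r over the 15 libraries, and 1 of those for Pdgfra is not reported here.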

Additional observations from a re-analysis of the deposited data

Results flagged for a closer look

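Fgf23 showed an effect of IL-17A that depended on IL-13. With IL-33 present throughout, this interaction was 1.47 on the log2(TPM + 1) scale. The gene passed the filter on low values only through the triple combination, so the test is taken from the fit of all 18078 genes with no filter (limma, adjusted p = 0.0015). The triple combination had 4.40 to 5.49 TPM, IL-33 with IL-13 had 0.910 to 1.10 TPM, IL-33 with IL-17A had 0.417 to 0.601 TPM, IL-33 alone had 0.242 to 0.617 TPM, and untreated cells were listed at 0 in each library. Among filtered genes the interaction was 1.45 under scaling by the typical gene and 1.40, not called, with the low mitochondrial term (limma, adjusted p = 0.2). Fgf23 entered those fits only through the group where it was high, so they give no further support. The counts behind the interaction were 40 to 49 reads in the triple combination and 2 to 11 in the other cytokine groups.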

How the results depend on the processing

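Of 1176 recomputed values of single genes, 1083 kept their direction and side of the threshold, 50 lost a call, 43 gained one and 0 reversed. Of 38 calls, 23 held under every alternative run and 15 were lost under some. The number of the 8 genes called moved by over 1.5 times in these cases, and the cause was not tested. In fits of the compared groups only, IL-33 with IL-17A against IL-33 called 0 (2 in the fit of all libraries) and the triple combination against IL-33 with IL-17A called 2 (4). Scaling by median ratio called 5 for IL-33 against untreated (3). With the low mitochondrial term, IL-33 against untreated called 5, IL-13 added to IL-33 called 1 (3), the triple combination against IL-33 called 5 (3) and against IL-33 with IL-13 called 0 (1). RPM from recovered reads called 6 for IL-33 against untreated, 3 for the triple combination against IL-33 with IL-13 and 1 for the interaction (0). Outside the set, IL-33 with IL-17A against IL-33 called 0, and inside it the triple combination called 0 against IL-33 with IL-13 and 1 against IL-33 with IL-17A. Leaving out 1 library gave 6 to 6 for the triple combination against untreated, 3 to 4 for IL-33 with IL-13, 5 to 6 for IL-33 with IL-17A and 2 to 3 for IL-33. It gave 1 to 2 for IL-33 with IL-17A against IL-33, 3 to 3 for IL-33 with IL-13 against IL-33, 2 to 3 for the triple combination against IL-33, 1 to 2 against IL-33 with IL-13 and 2 to 4 against IL-33 with IL-17A, 5 to 7 for IL-33 with IL-13 against IL-33 with IL-17A, and 0 to 3 for the interaction.

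Counts over all genes also moved by over 1.5 times. For IL-33 with IL-17A against untreated (5229) they were 3452 with the low mitochondrial term and 2139 outside the set, and for IL-33 with IL-13 (6887) 3549 with the term. For IL-17A added to IL-33 (1355) they were 520 in the compared groups, 835 with the term, 316 outside the set and 810 to 3057 with 1 library left out, and for IL-13 added (4506) 1420 with the term. For the triple combination against IL-33 with IL-13 (1034) they were 574 in the compared groups, 566 with the term, 193 inside the set, 1612 by RPM and 492 to 1962, and against IL-33 with IL-17A (2199) they were 788 in the compared groups, 839 outside the set, 594 inside it and 1455 to 2548. For IL-33 with IL-13 against IL-33 with IL-17A (2339) the compared groups gave 1529. The interaction (47) gave 97 by median ratio, 2 with the term, 1121 by RPM and 21 to 3038. No paired analysis was possible because nothing in the labels ties libraries of different groups to a shared animal, culture or day, and the replicate numbers used here only name libraries in accession order. Depth limits Fgf18, at 11 to 32 reads.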
